A study of Mus musculus with 8 samples.

Results

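Hepatokines are proteins that the liver secretes into the blood and that act on other organs. The 8 genes described here are Fgf21, Inhbe, Angptl8, Angptl4, Ahsg, Fetub, Selenop and Lect2, which were chosen by name and found by exact gene symbol, 8 of the 56691 genes in the deposited table. All 8 passed the filter on low counts and were tested. The study sequenced RNA from whole mouse liver in 8 libraries, 4 from mice injected with the plasmid plive-Con and 4 from mice injected with plive-Tet1, a plasmid meant to overexpress Tet1, an enzyme that oxidises methylated cytosine in DNA. All mice were wild-type C57BL/6J, 6 weeks old at the start, given the plasmid by hydrodynamic tail vein injection, kept on a choline-deficient, amino acid-defined high-fat diet (HFD-CDAA) for 4 weeks and killed after a short fast. This diet is used to model metabolic dysfunction-associated steatohepatitis (MASH), and both groups ate it, so no library shows a liver on ordinary chow. The labels do not give the promoter of the plasmid or the share of hepatocytes that took it up. Nothing in them says that every library is its own mouse, so each p-value rests on the spread from library to library, which may be technical.

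FGF21 is a hormone that signals through FGF receptors paired with beta-Klotho, and the liver releases it during fasting, amino acid shortage and cell stress. ANGPTL4 inhibits, and ANGPTL8 helps to inhibit, lipoprotein lipase, the enzyme that clears triglyceride from the blood, and activin E, made from Inhbe, acts on lipolysis in fat tissue. Fetuin-A (Ahsg) and fetuin-B (Fetub) are related plasma proteins of the cystatin superfamily, selenoprotein P (Selenop) carries selenium from the liver to other organs, and LECT2 is a secreted factor that binds the receptors MET and TIE1.

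In 3 of the 7 genes with a promoter entry, Fgf21, Inhbe and Angptl8, the 250 bases before the start of transcription hold the letters TGATGCAA. This is the core of the C/EBP-ATF element, through which ATF4 and related factors act on genes of amino acid shortage and stress. The windows of these 3 genes are printed because a match of this kind is rare among promoters. Sequences are from RefSeq on GRCm38.p6, in which 7 of the 8 genes had an entry. Angptl4 had none, so it was not searched for any of the letters below. Each window is written 5′ to 3′ in the direction of the gene with the match in capitals. TTGCATCA is the same core read on the other strand.
Fgf21, chr7:45615491-45615740, minus strand: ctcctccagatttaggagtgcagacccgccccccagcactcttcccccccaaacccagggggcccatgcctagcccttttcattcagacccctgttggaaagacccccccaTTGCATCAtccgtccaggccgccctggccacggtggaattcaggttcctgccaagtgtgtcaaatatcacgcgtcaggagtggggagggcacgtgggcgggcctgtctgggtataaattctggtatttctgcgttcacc
Inhbe, chr10:127351849-127352098, minus strand: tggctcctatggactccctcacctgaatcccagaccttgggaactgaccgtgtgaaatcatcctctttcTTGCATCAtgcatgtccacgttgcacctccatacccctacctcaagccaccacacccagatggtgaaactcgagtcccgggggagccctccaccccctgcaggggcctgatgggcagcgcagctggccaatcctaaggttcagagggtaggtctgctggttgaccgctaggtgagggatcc
Angptl8, chr9:21835260-21835509, plus strand: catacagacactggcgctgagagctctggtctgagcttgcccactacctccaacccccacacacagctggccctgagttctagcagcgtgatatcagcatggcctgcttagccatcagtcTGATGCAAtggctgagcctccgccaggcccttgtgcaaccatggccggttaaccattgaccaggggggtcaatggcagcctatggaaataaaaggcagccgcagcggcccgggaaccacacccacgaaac
The match lies 139 to 132 bases before the start in Fgf21, 181 to 174 in Inhbe and 130 to 123 in Angptl8, where it is on the strand of the gene. Searched on both strands, the core was present in 260 of 32851 windows of this length, or 0.791%. The TATA box letters TATAAA, present in 12.4% of windows, were found before Fgf21, Fetub and Selenop, at 28 to 23, 31 to 26 and 10 to 5 bases before the start. The E-box letters CACGTG, present in 6.02% of windows, were found before Fgf21, 50 to 45 bases from the start. The direct repeat bound by PPAR and RXR was searched as the letters AGGTCA given again after 1 base of any kind. It was in 11 of 32851 windows, or 0.0335%, and in 0 of the 7 genes. At that share a lack of matches in 7 genes was likely beforehand, so it does not show that these genes lack such sites. A match describes letters in the window and does not show that a factor binds there.

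Library totals ranged from 15885113 to 19850800 counts. Tet1 was near the limit of detection in both groups, and no overexpression was seen in plive-Tet1. Whether transcripts of the plasmid would be counted under this gene was not known, so its level could not settle the label. Its counts were 1, 9, 6 and 5 in plive-Con 1 to 4 and 9, 8, 12 and 5 in plive-Tet1 1 to 4, sums of 21 and 34. An exact two-sided permutation test on log2(FPKM + 0.5) gave p = 0.371, where the smallest possible p is 0.0286. The libraries are therefore named by their titles, and for the libraries labelled plive-Tet1 2, 3 and 4 the treatment field names Tet2, Tet3 and Tet4 instead. The hepatocyte markers, led by Alb, Trf and Apoa1, summed to between 99634 and 122494 CPM (counts scaled to library size by TMM) in plive-Con and between 100398 and 121232 in plive-Tet1. On the first principal component, with 27% of the variance, plive-Con 4 had a score of 52 and the other libraries lay between -19 and 3.72. Mitochondrial transcripts made up 6.42, 8.63, 4.45 and 3.31% of counts in plive-Con 1 to 4 and 6.43, 3.56, 3.23 and 4.51% in plive-Tet1 1 to 4. The summed lymphocyte markers were between 20.2 and 78.1 CPM in plive-Con and between 20.3 and 31.8 in plive-Tet1, and 8 of 10 had an unadjusted p under 0.05, against 4.07% of all genes tested, with a median log2 fold change of -0.79. That count was 3 without plive-Tet1 2, 4 without plive-Con 1 and 5 without plive-Con 2 or plive-Tet1 4. The corresponding count for red cell genes was 4 of 5, with a median of -0.84. None of these markers passed the adjusted threshold in edgeR. DESeq2 called 2 of 6 red cell genes, against 0.0526% of all genes it tested. Without a filter on low counts, edgeR called 4 of 6 red cell genes and 2 of 10 lymphocyte markers, against 0.469% of all genes. In whole liver, fewer cells of a type and less RNA per cell cannot be told apart.

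Setting plive-Tet1 against plive-Con asked whether transcripts of these secreted factors change when the Tet1 plasmid is delivered to livers of mice on the HFD-CDAA diet. No hepatokine gene differed between the groups in edgeR's quasi-likelihood test, and the values of the groups overlapped for all 8. The point estimates were higher in plive-Tet1 for 4 genes and lower for 4, and their median log2 fold change was 0.002, against 0.008 over all 14533 genes tested. Of the 8 genes, 0 passed an adjusted p of 0.05, 0 had an unadjusted p under 0.05 and 0 were called by DESeq2. Over all genes tested, edgeR called 0%, 4.07% had an unadjusted p under 0.05, DESeq2 called 0.0526% of the genes it tested, edgeR without a filter on low counts called 0.469%, and the groups did not overlap for 2.28%. The Benjamini-Hochberg adjusted p over all genes was 1.00 for each of the 8. The 95% intervals of the fold change lay between 0.663 and 1.595 for the 8 genes together, so no interval included a 2-fold change in either direction.

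**Figure D1:**
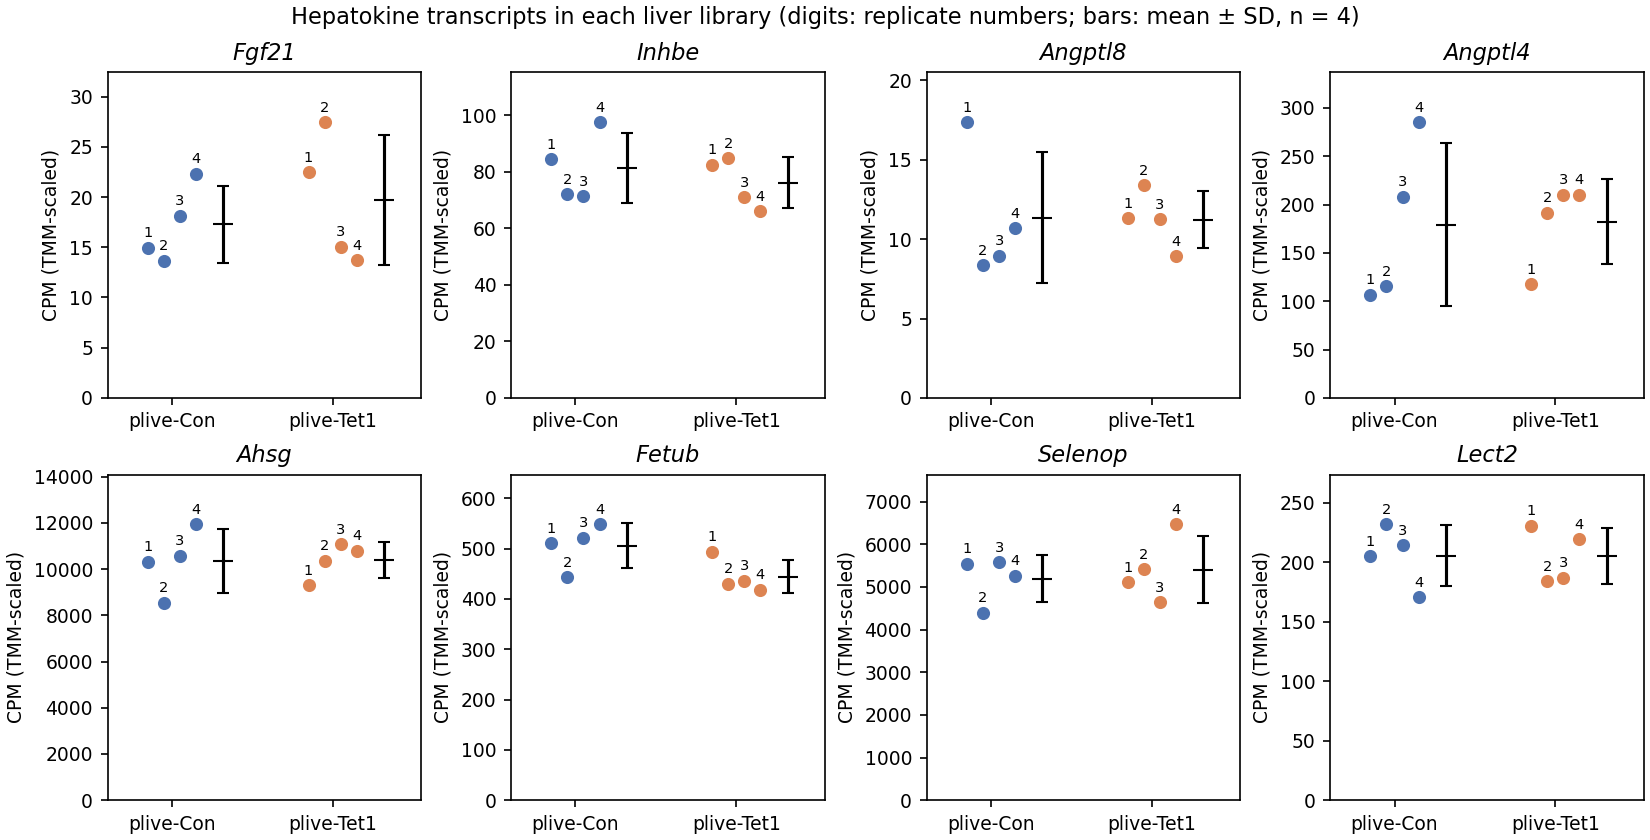
Level of each hepatokine gene in each liver library, in CPM scaled by TMM on a linear axis that starts at 0. Points are libraries with their replicate numbers, and bars give the mean and SD of the 4 libraries in each group. In every panel the plive-Con points and the plive-Tet1 points share part of their range, and the spread relative to the level of the gene is widest for Angptl4, from 107 to 285 CPM.

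The first group of genes carries the C/EBP-ATF core. Fgf21 (ENSMUSG00000030827) lies on GRCm39 chromosome 7 from 45263310 to 45264914 on the minus strand. It measured 14.9, 13.7, 18.1 and 22.3 CPM in plive-Con 1 to 4 and 22.5, 27.5, 15.05 and 13.7 CPM in plive-Tet1 1 to 4. The highest value belonged to plive-Tet1 2 and plive-Tet1 1 was next, but plive-Con 4 stood as high as plive-Tet1 1, and the other 2 plive-Tet1 libraries fell among the lowest. The means were 17.3 ± 3.86 CPM (SD, n = 4) in plive-Con and 19.7 ± 6.47 CPM (SD, n = 4) in plive-Tet1. The log2 fold change was 0.19 ± 0.23 (SE), with a 95% interval from -0.30 to 0.67. Without plive-Tet1 2 it was -0.029, and without plive-Con 4 it was 0.34.

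Inhbe (ENSMUSG00000047492, chromosome 10, 127184726 to 127190280, minus strand) measured 84.5, 71.99, 71.5 and 97.7 CPM in plive-Con 1 to 4 and 82.6, 84.7, 71.0 and 66.1 CPM in plive-Tet1 1 to 4. plive-Con 4 was the highest and plive-Tet1 4 the lowest, with the other libraries of both groups intermixed. Its log2 fold change was -0.098 ± 0.14 (SE), with a 95% interval from -0.39 to 0.20, and was 0.002 without plive-Con 4. The next gene on the same strand, 1911 bases away, is Inhbc, which encodes activin C, another liver-made activin subunit. Inhbc had a log2 fold change of 0.037, and per exonic length it was more abundant than Inhbe in all 8 libraries. The ratio of Inhbe to Inhbc FPKM (counts scaled to exon length and library total) was 0.444 ± 0.081 (SD, n = 4) in plive-Con and 0.399 ± 0.0097 (SD, n = 4) in plive-Tet1. The lowest and the highest ratio, 0.337 and 0.533, were both in plive-Con, so the plive-Tet1 libraries lay inside the plive-Con range.

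Angptl8 (ENSMUSG00000047822, chromosome 9, 21746806 to 21748643, plus strand) was the least abundant of the 8 and measured 17.4, 8.37, 8.95 and 10.7 CPM in plive-Con 1 to 4. In plive-Tet1 1 to 4 it measured 11.3, 13.4, 11.3 and 8.94 CPM. plive-Con 1 was the highest of all libraries and plive-Con 2 the lowest, so the plive-Con range contained that of plive-Tet1. For Angptl8 the log2 fold change was -0.016 ± 0.23 (SE), with a 95% interval from -0.50 to 0.47, and was 0.27 without plive-Con 1. The gene lies inside Dock6, which is on the opposite strand and had between 154 and 217 counts per library, against 139 to 300 for Angptl8, and whether counting used the strand was not given in the sources used here.

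Angptl4 (ENSMUSG00000002289, chromosome 17, 33992724 to 34000804, minus strand) varied more between libraries than 97.3% of the genes tested, measured by the SD of log2(CPM + 1). It measured 107, 116, 208 and 285 CPM in plive-Con 1 to 4 and 117, 192, 210 and 210 CPM in plive-Tet1 1 to 4. plive-Con 1, plive-Con 2 and plive-Tet1 1 were low, the other 5 lay between 192 and 285 CPM, and each group held both kinds. The low libraries were also the 3 with the largest mitochondrial share, 6.42 to 8.63% against 3.23 to 4.51% in the other 5, and the part of this share in the result was not tested. The log2 fold change was 0.027 ± 0.29 (SE), with a 95% interval from -0.59 to 0.65. It was -0.15 without plive-Con 1, -0.13 without plive-Con 2 and 0.35 without plive-Con 4. Angptl4 is also made by fat cells. Of 7 adipocyte markers, Adipoq, Lep, Retn and Plin1 had 0 counts in every library, Cfd and Adig were at most 0.201 CPM, and Cidec, which fatty hepatocytes express as well, ranged from 25.2 to 101 CPM.

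The proportion of Angptl4 to Angptl8 differed widely between libraries of the same group. The ratio of Angptl4 to Angptl8 FPKM was 1.501 in plive-Con 1 and 6.52 in plive-Con 4, the ends of the whole range. Its mean was 4.27 ± 2.27 (SD, n = 4) in plive-Con and 4.08 ± 1.38 (SD, n = 4) in plive-Tet1. Angptl4 was above Angptl8 in all 8 libraries, and the plive-Con range contained every plive-Tet1 value.

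The fetuins lie side by side on chromosome 16. Ahsg (ENSMUSG00000022868, 22710027 to 22718199, plus strand) is followed after 18885 bases by Fetub (ENSMUSG00000022871, 22737084 to 22758528, plus strand), and then after 11294 bases by Hrg, another member of the same protein group. Ahsg measured 10317, 8541, 10586 and 11946 CPM in plive-Con 1 to 4 and 9307, 10368, 11070 and 10800 CPM in plive-Tet1 1 to 4. plive-Con held both the lowest and the highest library. For Ahsg the log2 fold change was 0.0054 ± 0.16 (SE), with a 95% interval from -0.34 to 0.35. Ahsg alone took 0.892 to 1.15% of all counts in each library. It overlaps the opposite-strand gene Gm30505, which had between 48 and 80 counts, and Inhbe overlaps Gm47200, with at most 4.

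Fetub measured 511, 443, 521 and 548 CPM in plive-Con 1 to 4 and 493, 430, 436 and 418 CPM in plive-Tet1 1 to 4. Libraries plive-Tet1 2, 3 and 4 were below every plive-Con library, and plive-Tet1 1 lay among them. The means were 506 ± 44.9 CPM (SD, n = 4) in plive-Con and 444 ± 33.5 CPM (SD, n = 4) in plive-Tet1. The log2 fold change was -0.19 ± 0.12 (SE), with a 95% interval from -0.46 to 0.082, and the unadjusted p of 0.158 in edgeR was the smallest of the 8 genes. Fetub was also the one gene of the 8 whose estimate was below 0 in all 20 alternative analyses, from -0.25 to -0.14. Its adjusted p passed the threshold in none of them. These analyses reuse the same libraries, and the estimate of Inhbe was below 0 in 19 of 20. The ratio of Ahsg to Fetub FPKM was 18.2 ± 0.92 (SD, n = 4) in plive-Con, between 17.2 and 19.5. In plive-Tet1 it was 21.03 ± 2.86 (SD, n = 4), with 16.8 in plive-Tet1 1, the lowest of all 8, and between 21.5 and 23.1 in the other 3, above every plive-Con library. The neighbour Hrg had a log2 fold change of -0.10.

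Selenop (ENSMUSG00000064373, chromosome 15, 3298029 to 3309990, plus strand) measured 5547, 4391, 5577 and 5263 CPM in plive-Con 1 to 4 and 5108, 5412, 4640 and 6470 CPM in plive-Tet1 1 to 4. plive-Tet1 4 was the highest, plive-Con 2 the lowest, and the remaining libraries were intermixed. For Selenop the log2 fold change was 0.058 ± 0.16 (SE), with a 95% interval from -0.29 to 0.40, and was -0.039 without plive-Tet1 4. Its end overlaps the antisense gene Ccdc152, which had between 77 and 209 counts against at least 72886 for Selenop.

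Lect2 (ENSMUSG00000021539, chromosome 13, 56690277 to 56696315, minus strand) measured 205, 232, 214 and 170.5 CPM in plive-Con 1 to 4 and 231, 184, 187 and 219 CPM in plive-Tet1 1 to 4. Both ends of the range belonged to plive-Con, the highest in plive-Con 2 and the lowest in plive-Con 4. The log2 fold change was -0.0018 ± 0.13 (SE), with a 95% interval from -0.29 to 0.29.

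**Figure D2:**
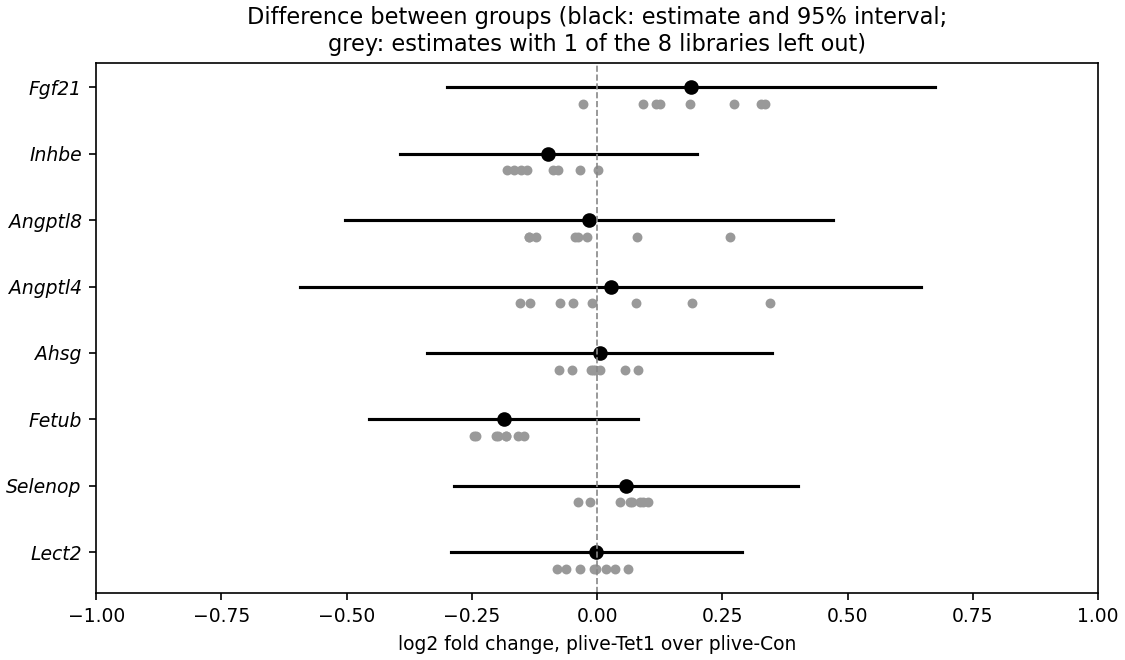
Log2 fold change of plive-Tet1 over plive-Con for each hepatokine gene in edgeR's quasi-likelihood test. Black points and lines are the estimate and its 95% interval over 8 libraries, and grey points are the estimates with 1 library left out. All 8 intervals include 0, and of the 8 rows the grey points stay on 1 side of 0 for Fetub alone.

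Compared per exonic length, the 8 transcripts spanned from the most abundant of the liver to moderate levels. Mean FPKM over the 8 libraries was 4705 for Ahsg, the rank of 12 among all genes, and 1861 for Selenop, the rank of 27. Fetub followed with 241 FPKM and Lect2 with 223 FPKM. Their ranges overlapped, from 211 to 269 and from 178 to 264 FPKM, and Fetub was above Lect2 in 6 of 8 libraries. Angptl4 had 50.7 FPKM, Fgf21 19.4, Inhbe 14.8 and Angptl8 13.1. Angptl4 was above Fgf21 in all 8 libraries, although the ranges touched. Fgf21 was above Inhbe in 7 of 8 libraries and Inhbe above Angptl8 in 7 of 8, and the ranges of both pairs overlapped. The gaps between Ahsg and Selenop (2.53-fold), Selenop and Fetub (7.71-fold) and Lect2 and Angptl4 (4.41-fold) had no overlap between libraries. Inhbe has 5319 exonic bases in the table against 865 for Angptl8, so Inhbe had more counts than Angptl8 at a like FPKM.

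**Figure D3:**
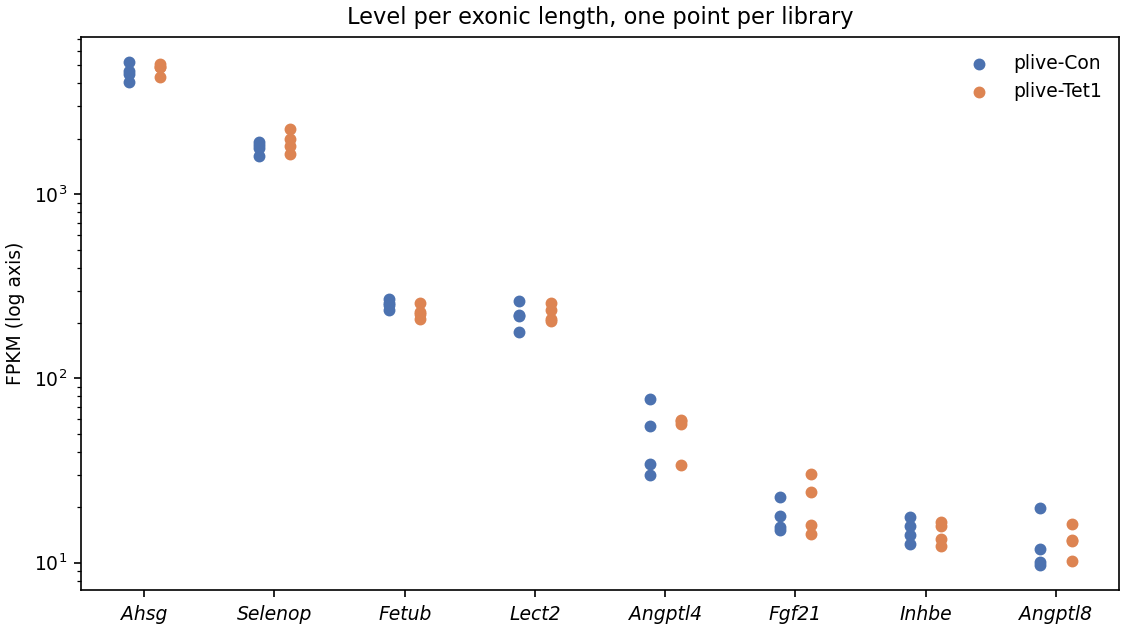
Level per exonic length of the 8 hepatokine genes, in FPKM on a log axis, with 1 point per library. Genes are ordered by the mean over all 8 libraries, from Ahsg at 4705 FPKM to Angptl8 at 13.1 FPKM, and the ranges of the 2 groups overlap for every gene.

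The genes fell into a variable and a steady set. The highest library exceeded the lowest 2.67-fold for Angptl4, 2.08-fold for Angptl8 and 2.01-fold for Fgf21 in CPM. For the other 5 genes this ratio was between 1.31 for Fetub and 1.48 for Inhbe. The coefficient of variation over the 8 libraries was 34.5% for Angptl4, 27.6% for Fgf21 and 26.2% for Angptl8, and between 10.1% for Ahsg and 13.2% for Inhbe in the others. Counting error alone, from the lowest count of each gene, was 8.48% for Angptl8, 6.64% for Fgf21 and 2.33% for Angptl4, below the spread between libraries in each case. By the SD of log2(CPM + 1), Fgf21 varied more than 88.0% and Angptl8 more than 81.6% of the genes tested. Ahsg and Fetub varied more than 17.6% and 17.0%. The added 1 lowers this SD most for genes of few counts. No library stood apart within its group for any of the 8 genes by Dixon's test at the 95% level.

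The libraries at the ends of the ranges recurred. plive-Con 4, the library apart on the first principal component, was the highest for Ahsg, Fetub, Angptl4 and Inhbe and the lowest for Lect2. plive-Con 2, with the largest mitochondrial share, was the lowest in CPM for Ahsg, Selenop, Fgf21 and Angptl8 and the highest for Lect2. In FPKM the lowest library was plive-Tet1 4 for Fgf21, at 14.3 against 15.03 in plive-Con 2. For Angptl8 it was plive-Con 3, at 9.71 against 10.12. Libraries plive-Con 4 and plive-Con 2 both carry the control plasmid, and the part of either feature in these values was not tested. Without plive-Con 4, 0 of the 8 genes were called, 5 had higher and 3 lower values, and their median log2 fold change was 0.033. Without plive-Con 2, 0 were called, 2 had higher and 6 lower values, and the median was -0.105.

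**Figure D4:**
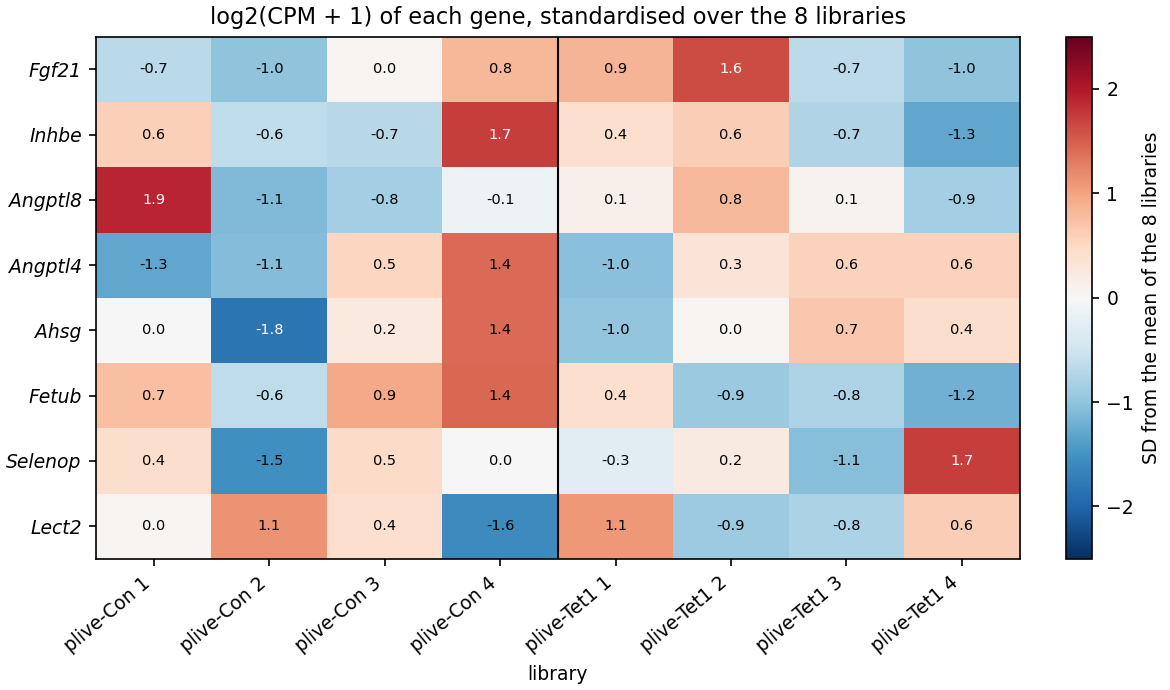
Level of each hepatokine gene in each library as log2(CPM + 1), standardised to the mean and SD of the gene over the 8 libraries. Red is above and blue below the mean of that gene, and the vertical line separates plive-Con from plive-Tet1. plive-Con 4 is 1.4 to 1.7 SD above the mean for Inhbe, Angptl4, Ahsg and Fetub, and stands at -1.6 SD for Lect2.

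Between the genes, 28 pairs of profiles over the 8 libraries were compared with exact two-sided permutation tests, and 0 passed Benjamini-Hochberg adjustment. Ahsg and Angptl4 were the closest pair, with Pearson's r = 0.827 (exact p = 0.00744, adjusted p = 0.207) and Spearman's rho = 0.905 (exact p = 0.00456, adjusted p = 0.128). Without plive-Con 2 and plive-Con 4, the libraries farthest from the median of Ahsg, r was 0.732. Ahsg and Lect2 ran in opposite directions, with r = -0.795 (exact p = 0.0148, adjusted p = 0.207) and rho = -0.714 (exact p = 0.0576, adjusted p = 0.681), and r was -0.568 without the same 2 libraries. The genes with the C/EBP-ATF core had r = 0.685 for Fgf21 and Inhbe (exact p = 0.063, rho = 0.571, exact p = 0.151) and r = 0.545 for Angptl8 and Inhbe (exact p = 0.166, rho = 0.524, exact p = 0.197). For Fgf21 and Angptl8, r was 0.27 (exact p = 0.527, rho = 0.571, exact p = 0.151). Without plive-Tet1 1 and plive-Tet1 2, r was 0.741 for Fgf21 and Inhbe and 0.024 for Fgf21 and Angptl8, and without plive-Con 1 and plive-Con 2 it was 0.552 for Angptl8 and Inhbe. The adjusted p of r was 0.441, 0.663 and 0.869 for these pairs in the order given. Fetub, in which the core was not found, had r = 0.628 with Inhbe (exact p = 0.0911, adjusted p = 0.51), above the r of Angptl8 and Inhbe. It was 0.127 without plive-Con 4 and plive-Tet1 4. For Fgf21 and Fetub, r was 0.277, and 0.841 without plive-Tet1 1 and plive-Tet1 2. The neighbours Ahsg and Fetub had r = 0.273 (exact p = 0.504, rho = 0.095, exact p = 0.84, adjusted p of r = 0.869), and r was -0.448 without plive-Con 2 and plive-Con 4.

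Among 10207 genes with a mean of at least 5 CPM, the profiles most like each hepatokine over the 8 libraries were taken as a description. For Fgf21 they were Lsm12 (r = 0.931), Mta2 (0.921) and Inhbc (0.91), the activin subunit gene beside Inhbe. For Inhbe they were Fbl (0.961), Rras (0.943) and Paf1 (0.942), and for Angptl8 they included Atic (0.96) and Axin2 (0.939). For Angptl4 they were Nfs1 (0.98), Elk1 (0.977) and Parp16 (0.977). Ahsg was closest to Oxnad1 (0.979), Rab3gap1 (0.976) and Aph1a (0.972), and Fetub to Vkorc1 (0.938), the unnamed gene ENSMUSG00000121141 (0.937) and Ebpl (0.935). Selenop was closest to Lancl2 (0.967), Sec23a (0.96) and Dennd6a (0.937), and Lect2 to Zc3h7a (0.982), Il1a (0.975) and Ggnbp2 (0.974). These profiles share libraries and depth, and each set is the top of 10207 values of r over n = 8.

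Around FGF21, the receptors and upstream regulators showed no gene past the threshold. Of 12 genes tested, 3 had higher and 9 lower values, 0 had an unadjusted p under 0.05 and the median log2 fold change was -0.052. Creb3l3, a liver transcription factor that acts on Fgf21, had -0.16, the receptor gene Fgfr3 had -0.11 and Ppara, the fasting-activated nuclear receptor upstream of Fgf21, had 0.12. Of 16 integrated stress response genes, the pathway that signals through ATF4, 0 passed in edgeR and 14 had higher and 2 lower values. The median was 0.23, against 0.008 over all genes tested. An unadjusted p under 0.05 was reached by 3, against 4.07% of all genes tested. They were Eif2ak3, the kinase PERK, at 0.33 ± 0.12 (SE), Psat1, an enzyme of serine synthesis, at 0.42 ± 0.16, and Atf3, a stress-induced transcription factor, at 0.49 ± 0.20. With 1 library left out, the list had 11 to 14 higher values, 11 without plive-Con 1, plive-Con 3, plive-Tet1 1 or plive-Tet1 3, and its median ran from 0.15 without plive-Tet1 1 to 0.34 without plive-Tet1 4. The count with an unadjusted p under 0.05 was 1 without plive-Con 3 or plive-Tet1 2, 2 without plive-Con 4, plive-Tet1 1 or plive-Tet1 3, and 5 without plive-Con 1. Over all genes tested, this count ran from 293 of 14692 without plive-Tet1 2 to 725 of 14810 without plive-Con 1.

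Among 16 targets of PPAR-alpha, of which Angptl4 and Fgf21 are also targets in liver, 0 passed, 2 had higher and 14 lower values, and the median was -0.22. Without plive-Con 4 the counts were 7 and 9 and the median was -0.016. Cyp4a14, a fatty acid hydroxylase, reached 3940 CPM in plive-Con 4, while the other 7 libraries held 394 to 833 CPM, and its log2 fold change was -1.34 ± 0.54 (SE) with all libraries and -0.16 without plive-Con 4. Cyp4a10 (-1.20) and the thioesterase gene Acot1 (-1.38) were also highest in plive-Con 4, the library in which Angptl4 was highest. Without a filter on low counts, edgeR called 4 of the 16, against 0.469% of all genes in that setting, and DESeq2 called 0 genes in any of the 10 pathway lists described here. Of 13 lipogenic and carbohydrate response genes tested, 0 passed, 7 had higher and 6 lower values, and the median was 0.017. Txnip, an inhibitor of thioredoxin, had -0.74, with 356 CPM in plive-Con 4 and 89.9 to 204 CPM in the other 7 libraries. The desaturase gene Scd1 had 0.57, with 41.2 CPM in plive-Con 4, 352 CPM in plive-Tet1 4 and 158 to 184 CPM in the others. In this list, edgeR without a filter called 1 of 14, Txnip, against 0.469% of all genes.

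In the lipoprotein lipase system, on which ANGPTL4 and ANGPTL8 act, 0 of 12 genes passed, 3 had higher and 9 lower values, and the median was -0.19. Gpihbp1, which holds the lipase on the capillary wall, measured 21.8 ± 5.31 CPM (SD, n = 4) in plive-Con and 13.5 ± 2.70 CPM in plive-Tet1, with a log2 fold change of -0.69 ± 0.19 (SE) and an unadjusted p of 0.00365 in edgeR. plive-Tet1 4, at 16.4 CPM, lay above plive-Con 3, at 15.5 CPM, so the groups overlapped. Of 10 sinusoidal endothelial markers, 0 passed, 1 had a higher and 9 had lower values, and the median was -0.30. An unadjusted p under 0.05 in edgeR was reached by 3, against 4.07% of all genes tested. They were Egfl7, Gpr182 and Kdr, at -0.48, -0.40 and -0.45, while Lyve1 had 0.25. The summed sinusoidal endothelial markers were 310 to 427 CPM in plive-Con and 249 to 369 CPM in plive-Tet1. Their part in the Gpihbp1 difference was not tested. Apoc3, an inhibitor of triglyceride clearance, had -0.35 and Apoc1 -0.27. Without a filter on low counts, edgeR called 1 of the 12, Gpihbp1, against 0.469% of all genes.

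In the activin and inhibin system around Inhbe, 0 of 13 genes tested passed, 9 had higher and 4 lower values, and the median was 0.037. The signal transducers Smad3 and Smad4 had 0.35 and 0.15, and the activin antagonist follistatin (Fst) had -0.20. Among 15 type 3 cystatins and serum protease inhibitors around the fetuins, 0 passed, 4 had higher and 11 lower values, and the median was -0.080. Serpina3k had 0.23, kininogen (Kng1) -0.13 and Pzp 0.15. Among 20 genes of selenoprotein synthesis and uptake, 0 passed, 9 had higher and 11 lower values, and the median was -0.026. Selenow, a small muscle-rich selenoprotein, had -0.34, Lrp8, a receptor for selenoprotein P, had 0.77 at no more than 1.16 CPM in any library, and Txnrd1 had 0.19.

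Around LECT2, 0 of 15 receptor and beta-catenin target genes passed, 7 had higher and 8 lower values, and the median was -0.036. Beta-catenin (Ctnnb1) had 0.23, its target Lgr5 0.39 and the LECT2 receptor gene Tie1 -0.32. Among 18 other secreted liver factors, 0 passed, 8 had higher and 10 lower values, and the median was -0.044, and edgeR without a filter called 1, Gpnmb, against 0.469% of all genes. Enho, which encodes adropin, measured 42.4 ± 9.36 CPM (SD, n = 4) in plive-Con and 30.5 ± 5.09 CPM in plive-Tet1. All 4 plive-Tet1 libraries were below the plive-Con libraries. Its log2 fold change was -0.48 ± 0.17 (SE), with an unadjusted p of 0.0149 in edgeR. Rbp4, in the same list, was also lower in every plive-Tet1 library, at most 3054 CPM against at least 3073 CPM in plive-Con. The groups did not overlap for Eif2ak3, Apoc3, Selenow, Lrp8 and Egfl7 either, nor for 2.28% of all genes tested. Igfbp2, an IGF-binding protein, had -0.60 and Gpnmb, which macrophages also make, had 0.71. Of 10 Kupffer cell and macrophage markers, 0 passed, 6 had higher and 4 lower values, and the median was 0.064. Trem2 and Lyz2 both had 0.51 and Clec4f, a Kupffer cell marker, had -0.36, and the summed markers were 1534 to 1850 CPM in plive-Con and 1765 to 2189 CPM in plive-Tet1. Their part in the Gpnmb value was not tested.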

How the data were processed

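Per the labels' protocols, RNA from mouse liver was sequenced as paired reads in 8 libraries. The reads were handled with cutadapt 1.9.1, HISAT2 2.2.1 and HTSeq 0.6.1 on GRCm39, per the submitters' processing notes. The annotation release was not given in the sources used here, nor was the strand setting. The authors deposited a raw count per gene and library, per the file headers, and FPKM values (counts scaled to exon length and library total), which differed from recomputed values by at most 0.00500. Groups came from the titles.

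Counts were tested with edgeR 4.0.16 in R 4.3.3 (filterByExpr, TMM, quasi-likelihood, two-sided, Benjamini-Hochberg over the 14533 genes tested, threshold 0.05), after a check on simulated data. Limma 3.58.1 and DESeq2 1.42.0 were alternatives. CPM values use TMM library sizes, and correlations use log2(CPM + 1). Replicate libraries differed by more than counting noise (chi-square per degree of freedom 12.9 to 77.6). Libraries with the same replicate number did not deviate together (r from -0.0405 to 0.0691 over 4 pairs), so the numbers were not treated as pairs. Counting errors cover counting alone.

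The genes and lists were chosen with earlier results of these data known. The rule for named genes took the 8 hepatokines, Tet1, the 3 genes of smallest p in each list, the 3 most alike genes and the neighbours on the chromosome. Some genes under this rule are not reported here. The ratios between genes and the marker genes that were given beside a result were chosen after their values were seen. The length taken from GENCODE M21 transcripts was an alternative chosen after seeing the data. Dixon's test flagged 0 of 16 sets of 4 libraries.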

Additional observations from a re-analysis of the deposited data

How the results depend on the processing

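Across 20 alternatives for each gene, 0 of the 8 hepatokine genes were called in any. Over all genes, edgeR without a filter on low counts called 132 of 28149 and DESeq2 called 11 of 20900, against 0 in the main analysis; the cause was not tested. Signs changed for estimates near 0. Ahsg was -0.008 with RLE factors and with DESeq2, -0.006 without a filter and -0.013 with at least 20 counts in 4 libraries. Angptl8 was 0.035 and Lect2 0.040 with library totals alone. Limma on log2(FPKM + 0.5), + 0.1 and + 1 gave 0.076, 0.079 and 0.072 for Angptl8 and 0.047, 0.048 and 0.047 for Lect2, and limma voom gave 0.029 and 0.001. Library totals alone moved the median of all genes from 0.008 to 0.055. The cause of these changes was not tested. Leaving out 1 library gave -0.029 to 0.335 for Fgf21, -0.076 to 0.082 for Ahsg, -0.154 to 0.346 for Angptl4, -0.136 to 0.266 for Angptl8, -0.039 to 0.101 for Selenop, -0.180 to 0.002 for Inhbe, -0.081 to 0.062 for Lect2 and -0.245 to -0.146 for Fetub. With library weights in limma voom, Fgf21 was 0.449 and Angptl4 0.383. With the lengths of the longest coding transcripts, a choice made after seeing the data, the order of the levels per length was the same.

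With the replicate number as a block, Angptl8 was 0.029 and Lect2 0.000, 0 genes were called, and 616 genes had an unadjusted p under 0.05, against 591 without it. Of the 8 libraries, 1 correlated best with its own number. The titles give only a number, so the block is not a pairing by design.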
